A study of Sus scrofa domesticus with 6 samples.

Results

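Cytotoxic lymphocytes, which include natural killer (NK) cells and cytotoxic T cells, kill infected or damaged cells by releasing granules onto them. The granules hold perforin, which opens the target's membrane, and granzymes, proteases that then start cell death inside it. In the small intestine most such cells sit among the epithelial cells as intraepithelial lymphocytes, and pig NK-lysin, the product of the porcine granulysin gene, was first purified from this organ. The genes described here are 10 symbols of this programme: the lectin-like receptors KLRK1, KLRB1 and KLRD1, the granzymes GZMA, GZMB and GZMH, perforin (PRF1), granulysin (GNLY) and the granule or vesicle proteins NKG7 and CTSW. They were chosen by symbol and matched 11 of the 30352 gene rows of the deposited table, because GZMA stands on 2 rows, and all 11 rows passed the filter on low counts.

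Bulk RNA sequencing measured small intestine of 6 wild type Göttingen minipigs aged 6 months, with 2 animals in each of 3 groups, and tissue was taken on day 14. Control animals were not irradiated, IR animals received 15 Gy of cobalt gamma rays to the abdomen, and IR_Pra animals received the same exposure and 40 mg per day of oral pravastatin, a cholesterol-lowering drug, for 2 weeks. The labels call the drug both PS and Pra, and both were read as pravastatin. The segment of the small intestine, the sex of the animals and any extraction batch are not given in the sources used here. With 2 animals in a group, no exact permutation test on a single gene can reach p under 0.05, so p-values come from 1 model over all genes and libraries.

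Libraries held between 48600424 and 73975174 counts. IR 2 stood apart: its Pearson r with the other libraries over 18197 genes ran from 0.847 to 0.903, and its summed level of 11 epithelial markers was 1773 CPM (a gene's count scaled to library size, with TMM factors), against 8453 to 10300 CPM in the other 5. All 7 measured small intestine markers, among them the gut transcription factor CDX2 and the disaccharidase SI, were detected in every library. Their summed level was 28658 CPM in IR 1 and 1172 in IR 2, against 10754 to 12847 in the other 4, so the IR animals lay on opposite sides of the rest. Library IR 1 had a trend with transcript length, with a Spearman correlation of -0.41 between length and the log2 ratio to the mean of all libraries, where the other 5 lay between 0.014 and 0.29.

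The 3 receptors lie in the natural killer gene complex of chromosome 5 (build Sscrofa11.1), where KLRK1 spans 61646691 to 61655386, KLRD1 61662083 to 61673109 and KLRB1 62244787 to 62257691. The granzymes lie in 2 neighbouring pairs. The GZMA rows, Entrez 100233183 (34262495 to 34272084) and Entrez 100526762 (34282160 to 34290422), are 10075 bases apart on chromosome 16, and GZMB (74705499 to 74708781) and GZMH (74723800 to 74727396) are 15018 bases apart on chromosome 7. PRF1 is on chromosome 14 (73515306 to 73520256), NKG7 on chromosome 6 (58496089 to 58497827), GNLY on chromosome 3 (59067327 to 59072034) and CTSW on chromosome 2 (6446105 to 6450357). Reads of the paired granzymes, or of KLRD1 and other rows named CD94, could be split between similar copies, so their single values are uncertain.

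Per transcript length, granulysin was the most abundant of these genes in the unirradiated gut. Its FPKM, the deposited value scaled to depth and transcript length, was 50.8 in control 1 and 98.6 in control 2, the first rank of the 11 rows in both. GZMB, at 31.9 and 64.3 FPKM, ranked 3 and 2, and CTSW, at 41.7 and 19.5, ranked 2 and 5. The receptors were at the other end of the order: KLRK1 had 8.71 and 7.75 FPKM, KLRB1 3.68 and 3.52, and KLRD1 0.153 and 0.426, the last rank in all 6 libraries. In IR 2 the order differed, with NKG7 at rank 1 (31.9 FPKM), granulysin at rank 2 (25.2) and GZMB at rank 7 (3.35). Neighbours in this order exchanged places between the control animals themselves, so the rank of CTSW, GZMB and the first GZMA row in controls did not differ beyond the spread between animals.

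**Figure D1:**
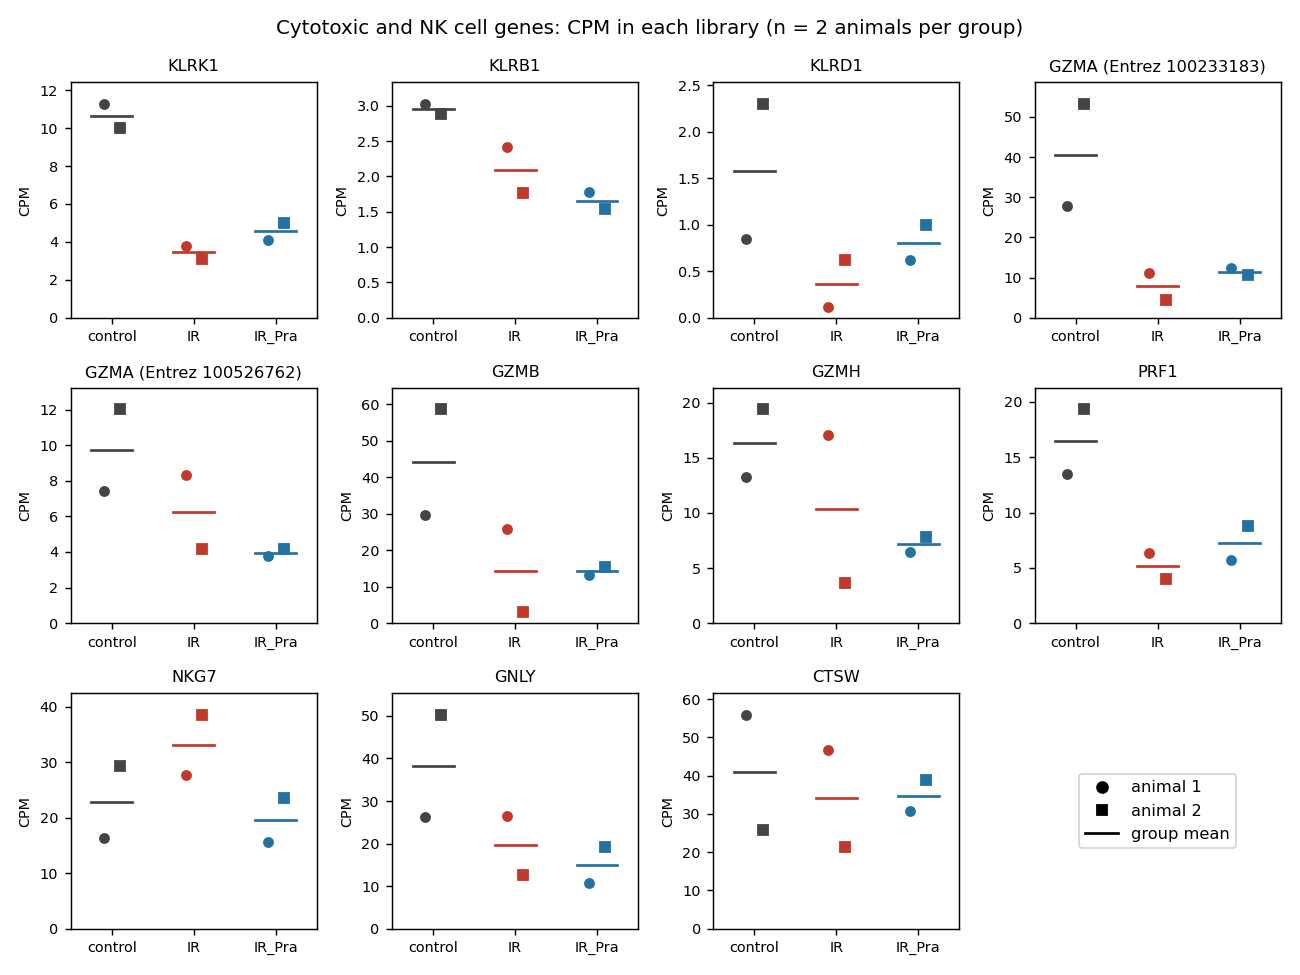
CPM (vertical axis, starting at 0) of each of the 11 rows in every library, by group on the horizontal axis; circles are animal 1, squares animal 2 and lines group means. KLRK1 has both controls above 10 CPM and all 4 irradiated animals at 5.01 or below, while NKG7 has its highest value, 38.6, in IR 2.

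KLRK1 encodes NKG2D, the activating receptor by which NK cells and CD8 T cells recognise stress ligands on damaged cells. It was at 11.3 and 10.02 CPM in the controls, 3.77 and 3.12 in IR, and 4.11 and 5.01 in IR_Pra. Both controls were above all 4 irradiated animals, and the groups did not overlap in any of the 3 comparisons. In the comparison of IR with control, which addresses the effect of the exposure, KLRK1 fell by 1.63 on the log2 scale (SE 0.31, adjusted p = 0.0456 by edgeR's quasi-likelihood test). It was the only 1 of the 11 rows past the threshold of an adjusted p under 0.05, a share that stands beside 6.06% of all 18197 genes tested. In a bulk sample, fewer cells of a type and less of a transcript per cell cannot be told apart.

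The KLRK1 call depended on which libraries entered the fit, while its direction did not. Without 1 library its log2 fold change ran from -1.78 to -1.50. Its adjusted p was 0.252 without control 1, 0.190 without control 2, 0.112 without either IR_Pra 1 or IR_Pra 2, 0.0394 without IR 2 and 0.0171 without IR 1. No gene of the table passed without either control or either IR_Pra library, so every call of the comparison was lost there. KLRK1 also missed the threshold with only the 4 libraries of the comparison (adjusted p = 0.107), with the replicate number as a block (0.0944), with limma on log2(FPKM + 1) (0.0552) and with library size alone as the scaling (0.0532), and passed with DESeq2 (0.000215) and limma voom (0.0476).

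KLRB1 encodes CD161, a lectin-like receptor of NK cells and some T cells, and KLRD1 encodes CD94, the partner chain of the NKG2 receptors. KLRB1 was at 3.03 and 2.89 CPM in the controls, 2.41 and 1.77 in IR alone, and 1.78 and 1.54 in IR_Pra, so that both controls were again above all 4 irradiated animals. Its log2 fold change in IR was -0.50 (95% interval -1.44 to 0.43, adjusted p = 0.410). KLRD1 was at 0.848 and 2.30 CPM in the controls, 0.111 and 0.621 in IR alone, and 0.618 and 0.994 in IR_Pra. It was below both controls in both IR animals, but IR 1 rested on 6 counts, and its log2 fold change of -2.06 had an interval from -4.25 to 0.14 (adjusted p = 0.186). With a library left out it ran from -3.81 (without IR 2) to -1.15 (without control 2), and it was -1.36 without IR 1.

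Granzyme A is a trypsin-like protease of cytotoxic granules. The row of Entrez 100233183, the more abundant of the GZMA pair, was at 27.8 and 53.3 CPM in the controls, 11.11 and 4.52 in IR alone, and 12.3 and 10.6 in IR_Pra. Both controls were above all 4 irradiated animals, and the log2 fold change in IR was -2.38 ± 0.53 (SE), the largest decrease among the 11 rows, with an adjusted p of 0.0561 that missed the threshold. It passed without IR 1 (-3.17, adjusted p = 0.0104) and without IR 2 (-1.87, adjusted p = 0.0458). The row of Entrez 100526762 was at 7.41 and 12.02 CPM in the controls, 8.30 and 4.15 in IR alone, and 3.77 and 4.16 in IR_Pra. Here IR 1 lay between the controls, and the log2 fold change in IR was -0.64 (interval -1.74 to 0.45, adjusted p = 0.372). The first row stood 3.76-fold and 4.43-fold above the second in the controls, 1.34-fold and 1.09-fold in IR, and 3.27-fold and 2.55-fold in IR_Pra, a ratio that did not overlap between control and IR or between IR_Pra and IR.

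Granzyme B cuts caspases and their substrates in the target cell, and granzyme H is its neighbour and relative. GZMB was at 29.6 and 58.6 CPM in the controls, 25.7 and 3.02 in IR alone, and 13.2 and 15.3 in IR_Pra. All 4 irradiated animals were below both controls, but the IR animals differed 8.51-fold from each other, more than IR 1 differed from control 1. The log2 fold change in IR was -1.62 with an interval from -3.87 to 0.63 (adjusted p = 0.283), and it was -3.87 without IR 1 (adjusted p = 0.00795) and -0.78 without IR 2 (adjusted p = 0.246). GZMH followed with 13.2 and 19.4 CPM in the controls, 17.1 and 3.64 in IR alone, and 6.47 and 7.80 in IR_Pra. IR 1 lay between the controls and IR 2 below all others, and the log2 fold change in IR of -0.66 (interval -2.34 to 1.02, adjusted p = 0.549) became -2.16 without IR 1 (adjusted p = 0.0146) and 0.063 without IR 2 (adjusted p = 0.904). IR 2 was also the library with the fewest epithelial transcripts and the most smooth muscle transcripts. Their part in these values was not tested.

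Perforin (PRF1) was at 13.5 and 19.3 CPM in the controls, 6.35 and 3.97 in IR alone, and 5.73 and 8.78 in IR_Pra. Both controls were above all 4 irradiated animals. The log2 fold change in IR was -1.67 ± 0.40 (SE) with an adjusted p of 0.0626 (0.0228 without IR 1). Granulysin, a saposin-like protein that disrupts microbial membranes, was at 26.4 and 50.3 CPM in the controls, 26.6 and 12.7 in IR alone, and 10.8 and 19.3 in IR_Pra. IR 1 was level with control 1, and the log2 fold change in IR was -0.96 (interval -2.24 to 0.31, adjusted p = 0.263).

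NKG7, a membrane protein of cytotoxic granules needed for their release, had its highest values in IR 2, where most of the others were lowest. It was at 16.3 and 29.2 CPM in the controls, 27.7 and 38.6 in IR alone, and 15.6 and 23.6 in IR_Pra, and it was the only 1 of the 11 rows with a positive log2 fold change in IR (0.54, interval -0.41 to 1.49, adjusted p = 0.387). The ratio of NKG7 to GZMB was 0.551 and 0.499 in the controls, 1.08 and 12.8 in IR alone, and 1.18 and 1.54 in IR_Pra. All 4 irradiated animals were above both controls in this ratio, which was not planned. It divides the only row with a positive value in IR by a row below both controls in all 4 irradiated animals. Its separation follows in part from that choice, so it is a description. CTSW, cathepsin W, a protease of NK and CD8 T cells, was at 55.9 and 25.8 CPM in the controls, 46.8 and 21.4 in IR alone, and 30.7 and 38.9 in IR_Pra. Its groups overlapped throughout, and its log2 fold change in IR was -0.26 (interval -1.50 to 0.98, adjusted p = 0.757).

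As a group, 10 of the 11 rows had a negative log2 fold change in IR against control, beside 48.7% of all genes, with a median of -0.96 where the median of all genes tested was 0.03. The IR values were below both controls in 6 rows (KLRK1, KLRB1, KLRD1, the GZMA row of Entrez 100233183, GZMB and PRF1) and above both in 0, beside 30.0% and 29.8% of all genes (59.8% in either direction). An unadjusted p under 0.05 in the downward direction was reached by 3 rows, where 13.8% of all genes reached it (30.2% in either direction). In either direction the count of rows was 7 with the length trend removed, beside 5546 of 18197 genes. It was 4 with limma voom, limma on log2(FPKM + 1) and the replicate block, beside 5482, 5003 and 4679 of 18197 genes. DESeq2 also gave 4, beside 6003 genes. The count rose without IR 1, IR 2 or control 1 and fell without control 2, in fits where a group holds a single animal. Both controls were above all 4 irradiated animals in 5 rows (the same without KLRD1), a pattern shown by 10.7% of all genes.

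**Figure D2:**
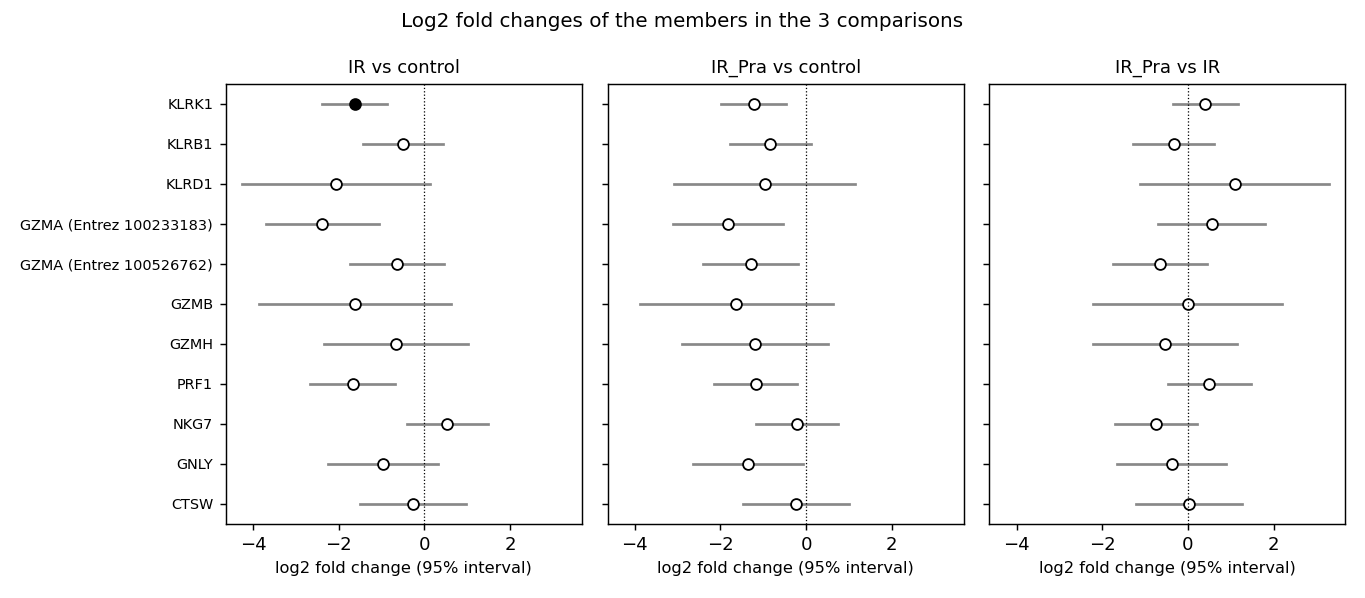
Log2 fold change (horizontal axis) of each row with its 95% interval in the 3 comparisons; filled points passed an adjusted p under 0.05. KLRK1 in IR vs control is the single filled point, and in IR_Pra vs control all 11 points lie below 0.

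The comparison of IR_Pra with control asked how irradiated and drug-treated animals differed from unirradiated ones. All 11 rows had a negative log2 fold change there, from -1.82 to -0.22 with a median of -1.19, where the median of all genes was 0.00. A negative value was found for 49.4% of all genes. The most negative values were those of the GZMA row of Entrez 100233183 (-1.82 ± 0.52, SE), GZMB (-1.63 ± 0.91), granulysin (-1.35 ± 0.52), the other GZMA row (-1.29 ± 0.45) and KLRK1 (-1.22 ± 0.31). IR_Pra values lay below both controls in 8 rows, and above both in 0, beside 20.0% and 20.8% of all genes. The rows that overlapped were KLRD1, NKG7 and CTSW.

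No row passed the threshold in IR_Pra vs control with edgeR, DESeq2 or limma voom, and the edgeR adjusted p was 0.9998 for each, in a comparison where edgeR called 0 of 18197 genes (0%). An unadjusted p under 0.05 was reached by 5 rows, all lower in IR_Pra, where 1.03% of all genes reached it downward. Upward it was reached by 2.40%, and in either direction by 3.42%. The count of rows was 3 with the replicate block, beside 488 of 18197 genes. With only the 4 libraries of the comparison it was 8, beside 1668 of 17617 genes. It fell without control 2 or either IR_Pra library and rose without either IR library, in fits where a group holds a single animal. The 5 rows were KLRK1, both GZMA rows, PRF1 (-1.18 ± 0.40) and granulysin. The drug-treated animals lay closer to each other than the controls did for GZMB, at 14.3 ± 1.47 CPM (SD, n = 2) against 44.1 ± 20.5, and for the GZMA row of Entrez 100233183, at 11.5 ± 1.19 against 40.6 ± 18.0. Both comparisons with control share its 2 libraries, so they are not independent of each other.

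Between IR_Pra and IR, the comparison that asked what pravastatin changed after irradiation, no row passed the test. The count past the threshold was 0 with edgeR, DESeq2 and limma voom, the count with an unadjusted p under 0.05 was 0 (24.5% of all genes), and edgeR called 0.00550% of all genes. Log2 fold changes ran from -0.76 for NKG7 to 1.09 for KLRD1, with a median of -0.01 and 6 rows below 0, beside 50.9% of all genes. The groups did not overlap for KLRK1, which was higher in IR_Pra (0.41, interval -0.35 to 1.16, adjusted p = 0.447), and for NKG7, which was lower (interval -1.71 to 0.20, adjusted p = 0.286). Those 2 rows of 11 stand beside 53.9% of all genes, 27.3% higher and 26.6% lower. The intervals were wide: for GZMB (-0.01) the interval from -2.21 to 2.19 holds large changes in either direction, and without IR 1 its value was 2.24 (adjusted p = 0.0361).

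The cytotoxic genes were then set against the T cell receptor complex, which marks T cells but not NK cells. The summed level of the chains CD3D, CD3E and CD3G was 100.5 and 73.5 CPM in the controls, 56.6 and 15.8 in IR alone, and 55.1 and 80.2 in IR_Pra. The 11 rows summed to 205.4 and 283.2 CPM in the controls, 175.9 and 97.4 in IR alone, and 105.2 and 136.0 in IR_Pra. Thus the sum of cytotoxic genes was below both controls in all 4 irradiated animals, while 1 IR_Pra animal had CD3 chains between the controls. The ratio of the sums was 2.04 and 3.85 in the controls, 3.11 and 6.17 in IR alone, and 1.91 and 1.69 in IR_Pra, so that both IR_Pra animals were below both controls and the IR animals overlapped them.

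**Figure D3:**
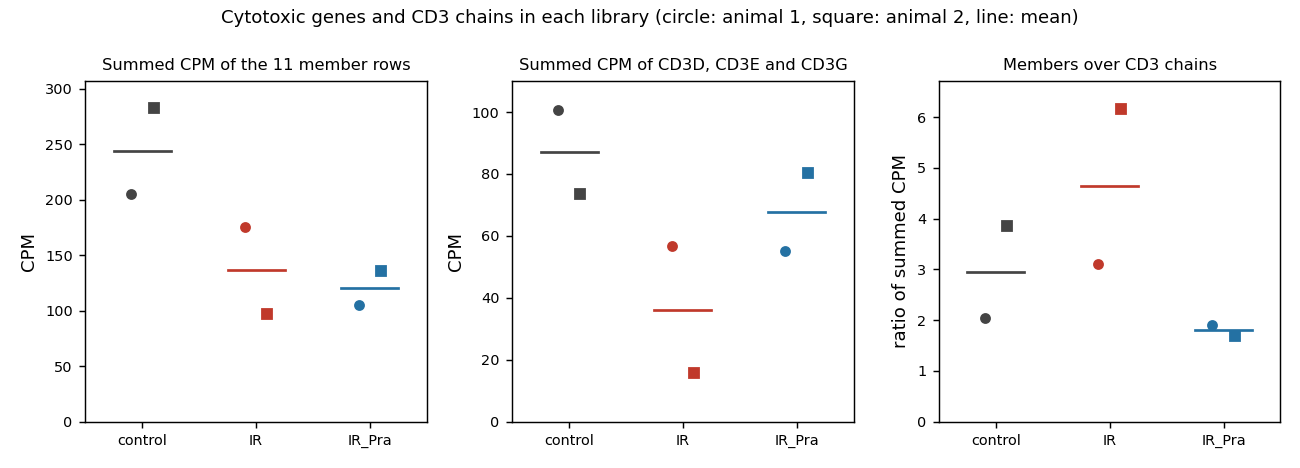
Summed CPM of the 11 rows (left), summed CPM of the 3 CD3 chains (middle) and their ratio (right) by group, each axis starting at 0; circles are animal 1, squares animal 2, lines group means. The IR_Pra animals have the lowest ratios, 1.91 and 1.69.

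Gene by gene, the ratio to CD3 chains was below both controls in both IR_Pra animals for KLRK1, both GZMA rows, GZMB, GZMH, PRF1 and granulysin. The ratio of perforin, for example, was 0.134 and 0.263 in control and 0.104 and 0.109 in IR_Pra. These are ratios of CPM, not scaled to transcript length. In IR, the ratios of NKG7, CTSW and KLRB1 were above both controls, and no row was below both. They were 0.489 and 2.44 against 0.162 and 0.398 for NKG7, and 0.826 and 1.35 against 0.556 and 0.351 for CTSW. For KLRB1 they were 0.0426 and 0.112 against 0.0301 and 0.0393. These ratios are descriptions of the libraries with no test, and the share of all genes with such ratios is not given. The ratios depend on the CD3 sum, which was 56.6 and 15.8 CPM in IR against 100.5 and 73.5 in the controls. KLRB1 itself was lower in both IR animals than in both controls, so its higher ratio follows the lower CD3 sum. On the log2 scale the mean ratio of IR over control was 0.65, and it turned to -0.14 with the T cell genes LCK and LAT in place of the CD3 chains, a denominator chosen after seeing the data. For IR_Pra over control it was -0.71, -0.72 with LCK and LAT, and -0.18 without control 2. With LCK and LAT the ratio was 2.21 and 4.72 in the controls and 2.27 and 1.93 in IR_Pra, so these groups overlapped. They overlapped with LCK alone (3.45 and 7.30 against 3.67 and 3.29) and not with LAT alone (6.13 and 13.4 against 5.93 and 4.68).

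Among single T cell genes, CD3D fell in IR (log2 fold change -1.92 ± 0.30, adjusted p = 0.0375), from 14.5 and 12.4 CPM in control to 4.07 and 3.06, and was at 9.94 and 11.2 in IR_Pra. CD3E, the most abundant chain, was at 71.3 and 45.5 CPM in the controls, 45.4 and 9.90 in IR alone, and 34.3 and 54.4 in IR_Pra (log2 fold change in IR -1.08 ± 0.70, adjusted p = 0.339), and CD3G at 14.7 and 15.5, 7.21 and 2.83, and 10.9 and 14.7 (-1.59 ± 0.48, adjusted p = 0.0937). CD8A, the coreceptor chain that T cells share with many pig NK cells, was at 19.7 and 10.9 CPM in the controls, 4.37 and 7.21 in IR alone, and 14.3 and 18.1 in IR_Pra (-1.40 ± 0.42, adjusted p = 0.0915). Its partner CD8B, which marks conventional CD8 T cells, was at 2.39 and 1.29, 3.57 and 0.700, and 2.07 and 3.24 CPM (0.21 ± 0.80, adjusted p = 0.885), so the groups overlapped. Of 14 T cell markers tested, 3 fell in IR, CD3D among them, and 0 rose, beside 2.68% and 3.39% of all genes. Their median was -1.34, where the median of all genes was 0.03. Against control, the T cell median in IR_Pra was -0.09, where that of all genes was 0.00.

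NCR1, the activating NK receptor NKp46, was at 1.45 and 0.540 CPM in the controls, 1.86 and 2.38 in IR alone, and 0.695 and 1.78 in IR_Pra, with both IR animals above both controls (1.09 ± 0.68, adjusted p = 0.327). NCR3, NKp30, an activating receptor of NK cells, was at 3.64 and 1.87 CPM in the controls, 0.316 and 0.330 in IR alone, and 2.12 and 5.74 in IR_Pra. Both IR animals were below both controls for NCR3 (-3.08 ± 0.67, adjusted p = 0.0543), the opposite of the order for NCR1.

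Among 17 tested genes of other NK receptors and their adaptors, 3 fell and 1 rose in IR, with a median of -1.51. CD96, an adhesion receptor of NK and T cells, fell from 16.1 and 16.9 CPM to 2.19 and 1.84 (-3.03 ± 0.29, adjusted p = 0.0357), and was at 7.72 and 7.22 in IR_Pra, below both controls and above both IR animals. CD247, the signalling chain of both the T cell receptor and NK receptors, fell by 2.15 (adjusted p = 0.0468) and the inhibitory receptor TIGIT by 2.09 (adjusted p = 0.0487). FCGR3A, the Fc receptor CD16 of NK cells and also of macrophages and neutrophils, rose from 57.0 and 48.3 to 199.96 and 223.7 CPM (2.01 ± 0.33, adjusted p = 0.0391). In the same libraries 7 of 9 macrophage markers rose and 0 fell, beside 3.39% and 2.68% of all genes. Their summed level was 729.4 and 736.2 CPM in the controls, 3543 and 3827 in IR alone, and 1239 and 1863 in IR_Pra. The part of these markers' cells in the FCGR3A value was not tested.

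Granules have to be loaded, moved along the cytoskeleton and fused with the membrane. Of 15 genes for granule loading and release, 1 fell in IR: DOCK8, an actin regulator of lymphocytes, from 116.8 and 80.0 to 20.2 and 28.3 CPM (-2.02 ± 0.30, adjusted p = 0.0370). The list's median was -0.57 with 12 genes below 0 and 3 above. With edgeR, 4 reached an unadjusted p under 0.05 downward and 2 upward, where 13.8% and 16.4% of all genes did. CTSC was at 94.4 and 72.2 CPM in the controls, 127.1 and 220.3 in IR alone, and 121.7 and 165.6 in IR_Pra. All 4 irradiated animals were above both controls for CTSC (IR vs control 1.06 ± 0.36, adjusted p = 0.116). Of 8 tested death ligands and effector cytokines, 1 fell: TNFSF10, the death ligand TRAIL, from 107.1 and 127.1 to 30.4 and 34.7 CPM (-1.85 ± 0.23, adjusted p = 0.0364), with 106.9 and 108.5 in IR_Pra. The chemokine CCL5, which cytotoxic granules carry in large amounts, was at 94.3 and 90.3 CPM in the controls, 73.8 and 13.7 in IR alone, and 41.2 and 38.8 in IR_Pra, and its value in IR_Pra vs control was -1.21 (95% interval -2.93 to 0.52). Of 8 genes on target cells, 0 passed in IR with edgeR or limma voom (DESeq2 called 1 higher, and 3 had an unadjusted p under 0.05 with edgeR); ULBP1, a ligand of the KLRK1 receptor, was at 0.0346 and 0.0953 CPM in the controls, 0.409 and 1.16 in IR alone, and 0.232 and 0.0563 in IR_Pra (3.55 ± 1.01, adjusted p = 0.0814), and the controls rested on 2 and 6 counts.

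Transcription factors set up the cytotoxic programme in developing lymphocytes. Of 16 tested, 3 fell in IR and 0 rose, with a median of -1.32: BCL11B, a T cell identity factor (-2.99 ± 0.36, adjusted p = 0.0361), IKZF3 (-2.92 ± 0.38, adjusted p = 0.0370) and TOX (-2.24 ± 0.24, adjusted p = 0.0359). BCL11B was at 6.54 and 5.54 CPM in the controls, 0.762 and 0.753 in IR alone, and 6.82 and 5.10 in IR_Pra. The T-box factors that drive granzyme and perforin expression did not pass: EOMES was at 3.15 and 2.51, 0.966 and 1.21, and 1.95 and 2.03 CPM (IR vs control -1.37 ± 0.39, adjusted p = 0.0857), and TBX21 at 6.16 and 6.32, 3.85 and 2.15, and 3.84 and 5.42 CPM (-1.06 ± 0.41, adjusted p = 0.152). For both T-box genes the 2 controls were above all 4 irradiated animals. NFIL3, another factor of the list, went the other way, with all 4 irradiated animals above both controls. It was at 6.61 and 9.26 CPM in the controls, 15.5 and 25.1 in IR alone, and 11.4 and 18.2 in IR_Pra. Its log2 fold change in IR was 1.35 ± 0.39 (adjusted p = 0.0879).

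Of 16 tested cytokine inputs, 2 fell and 0 rose in IR: IL2RB, the receptor chain through which interleukin 15 keeps NK cells and intraepithelial lymphocytes alive, from 65.4 and 48.5 to 24.96 and 16.7 CPM (-1.45 ± 0.30, adjusted p = 0.0499), and IL21R (-2.001 ± 0.40, adjusted p = 0.0480). IL2RB was at 38.2 and 43.3 CPM in IR_Pra, below both controls. Of 20 homing and retention genes, 2 fell and 0 rose: CCR9, the receptor that draws lymphocytes to the small intestine, from 8.47 and 4.604 to 0.743 and 0.792 CPM (-3.08 ± 0.46, adjusted p = 0.0370), and CD69, a tissue retention marker (-2.02 ± 0.35, adjusted p = 0.0408). CD101, a surface protein of resident T cells, was at 11.6 and 11.9 CPM in the controls, 5.93 and 4.37 in IR alone, and 6.47 and 7.77 in IR_Pra.

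Over these 7 pathway lists together, 12 of 100 tested genes fell and 1 rose in IR, where 2.68% of all genes fell and 3.39% rose. DESeq2 called 30 lower and 5 higher of 105, beside 1727 lower and 2069 higher of 19190 genes. Limma voom called 9 lower and 1 higher, beside 424 lower and 507 higher of 18197. With edgeR 0 were lower with only the 4 libraries of the comparison or with the replicate block, where 0 of all genes passed. Every call was lost without either control or either IR_Pra library. Without either IR library the counts rose, for the lists and for all genes, in fits where a group holds a single animal. In IR_Pra vs IR, edgeR and limma voom called 0 of the 100. DESeq2 called 23 higher and 1 lower of 105, beside 1170 higher and 1343 lower of 18770 genes. With edgeR, 30 had an unadjusted p under 0.05 upward and 5 downward, where 11.7% and 12.8% of all genes did. Without either IR library the edgeR counts of this comparison also rose, for the lists and for all genes. In IR_Pra vs control, all 3 tools called 0, and edgeR gave 1 gene with an unadjusted p under 0.05 upward and 2 downward. The lists were chosen with earlier results of these data known, and their counts are descriptions.

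The natural killer gene complex holds further lectin-like rows without a symbol of their own. Rows whose deposited product text names a granzyme, a killer cell lectin-like receptor, CD94 or NKG2-A were drawn after their values had been seen, and gave 13 rows, of which 10 were tested. LOC100519314 (chromosome 5, 61724744 to 61736667), a second row described as CD94, was at 4.33 and 3.92 CPM in the controls, 1.39 and 0.660 in IR alone, and 1.68 and 1.80 in IR_Pra, so it was more abundant than KLRD1 in the controls and had both controls above all 4 irradiated animals (IR vs control -2.01 ± 0.48, adjusted p = 0.0618). LOC106507518 (chromosome 5, 61533765 to 61544200), described as CD94-like, was at 6.35 and 5.94 CPM in the controls, 1.06 and 0 in IR alone, and 0.154 and 0.863 in IR_Pra; the 0 allows up to 0.0396 CPM at 3 counts. Its log2 fold change in IR was -3.58 ± 1.55 (adjusted p = 0.186). LOC106507519, described as killer cell lectin-like receptor 8, was at 9.66 and 8.02, 5.18 and 0.224, and 1.72 and 1.67 CPM (-1.72 ± 1.16, adjusted p = 0.360). Both controls were again above all 4 irradiated animals. IR and control overlapped for LOC100523789, described as NKG2-A (-1.23 ± 0.66, adjusted p = 0.261), and KLRG1 (-0.17 ± 0.59, adjusted p = 0.869). KLRG2 was higher in IR (3.19 ± 1.37, adjusted p = 0.168), with 0 and 3 counts in the controls.

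Among the tested lectin-like rows without a symbol, 2 were above both controls in both IR animals, and 1 of them passed. Of all genes, 29.8% were above both controls in IR and 3.39% passed as higher. LOC100519314, LOC106507518 and LOC106507519 were below both controls in IR, and LOC100523789 overlapped. LOC100520491 (chromosome 5, 62106699 to 62121394), described as a KLRB1 relative, subfamily B member 1B allele B, rose from 5.83 and 9.07 CPM in control to 26.5 and 52.6 in IR (2.41 ± 0.43, adjusted p = 0.0423) and was at 15.0 and 18.4 in IR_Pra. All 4 irradiated animals were above both controls, the reverse of the order of KLRB1 itself. LOC102165642 (chromosome 5, 61583868 to 61596985), described as CD94-like, was at 0.416 and 0.524 CPM in the controls, 0.910 and 1.27 in IR alone, and 0.232 and 0.319 in IR_Pra (log2 fold change in IR 1.21 ± 0.52, adjusted p = 0.185). Of the granzymes that are not among the 10 symbols, GZMK was at 1.42 and 1.97 CPM in the controls, 1.69 and 0.291 in IR alone, and 1.101 and 0.863 in IR_Pra, and GZMM at 1.71 and 1.13, 1.19 and 0.673, and 1.70 and 1.37, and neither passed in any comparison.

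The summed levels of other cell types were read in the same libraries. The epithelial level was 9060 and 10093 CPM in the controls, 8948 and 1773 in IR alone, and 10300 and 8453 in IR_Pra, so IR 2 was the one library far below the rest. Smooth muscle markers summed to 5239 and 10412 CPM in the controls, 25042 and 57053 in IR alone, and 16274 and 11074 in IR_Pra. B cell markers summed to 595.7 and 353.7, 40.8 and 49.3, and 188.5 and 500.3 CPM. Of 9 tested, 5 were lower in IR past the threshold, beside 2.68% of all genes. Plasma cell markers summed to 554.5 and 775.1 CPM in the controls, 1558 and 2122 in IR alone, and 1606 and 1068 in IR_Pra. All 4 irradiated animals were thus above both controls. Of 6 tested, 1 passed in IR, higher, beside 3.39% of all genes. Mast cell markers, of a cell type that also makes granule proteases, summed to between 33.6 and 54.5 CPM in all libraries, with 1 of 6 at 0 in every library, and 0 of 5 tested passed with edgeR, or reached an unadjusted p under 0.05, in any comparison. The part of these cell types in the values of the cytotoxic genes was not tested.

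**Figure D4:**
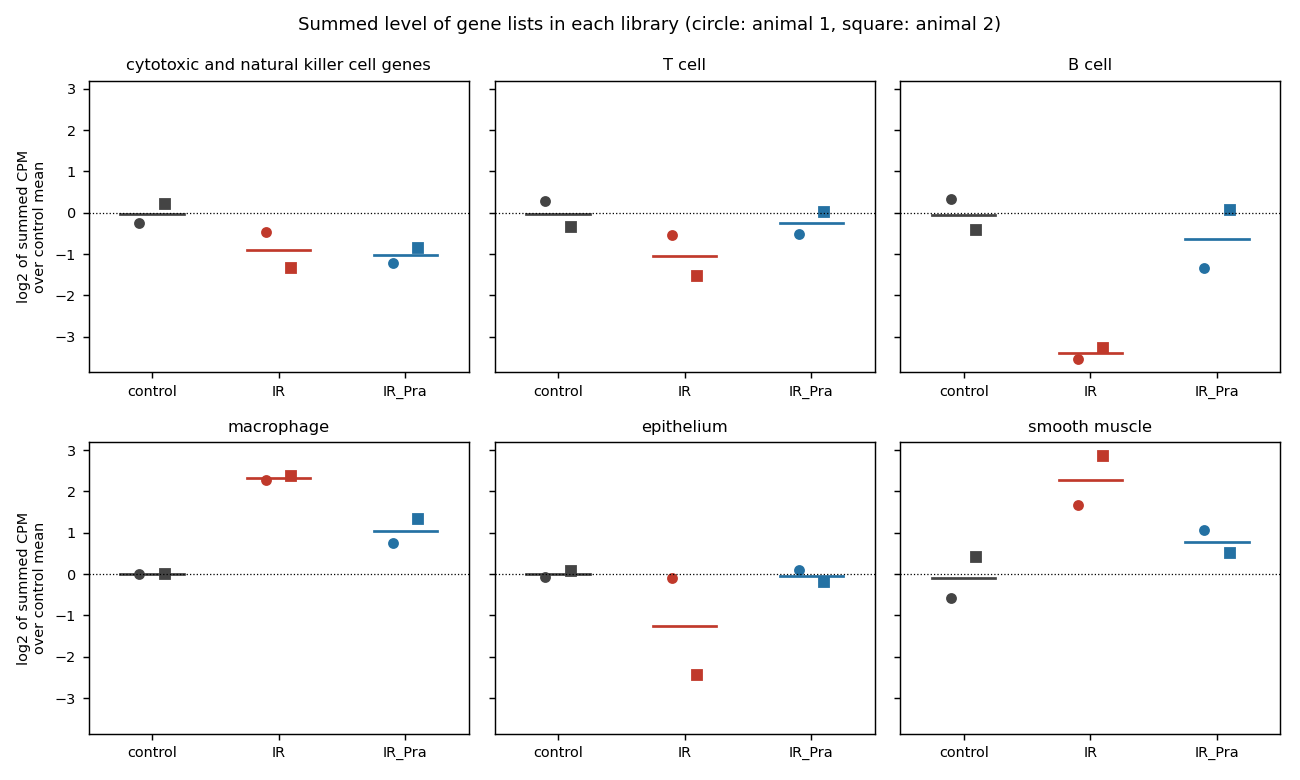
Log2 of the summed CPM of 6 gene lists over the control mean (vertical axis) in each library, by group; circles are animal 1, squares animal 2, lines group means. The cytotoxic genes sit at -1.22 and -0.85 in IR_Pra, where the T cell list sits at -0.52 and 0.02 and epithelium at 0.11 and -0.18.

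Most of the 11 rows varied together across the 6 libraries, which span 3 groups. In the controls, 8 of 11 rows were higher in control 2, with a median ratio of 1.62, and KLRK1, KLRB1 and CTSW were not. In IR, 9 of 11 rows were lower in IR 2, and KLRD1 and NKG7 were higher there. Over the 6 libraries, the Pearson r of a row's standardised log2 CPM with the mean of the other 10 rows was 0.94 for granulysin, 0.93 for PRF1 and 0.92 for the GZMA row of Entrez 100233183, and between 0.81 and 0.89 for KLRB1, KLRK1, GZMH, GZMB and the other GZMA row. It was 0.28 for KLRD1, 0.23 for CTSW and -0.24 for NKG7. The points share library, depth and tissue makeup, and differences between the 3 groups enter r, so these values are descriptions. The shares of all genes higher in control 2 or lower in IR 2 are not given.

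Among the genes ranked outside the list, those whose log2 CPM followed the members' mean most closely were CTDSP1 (r = 0.99 over the 6 libraries), SMARCD1 (0.98), FAM193B (0.98), SUPT3H (0.98) and TDRD6 (0.97). CTDSP1, a small phosphatase, was at 209.7 and 241.2 CPM in the controls, 198.7 and 163.7 in IR alone, and 165.3 and 187.2 in IR_Pra, with both controls above all 4 irradiated animals. These 5 were the highest of 13421 genes ranked on 6 points. Rows named LOC, repeated row names and genes of low mean CPM were not ranked.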

How the data were processed

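Deposited gene counts and FPKM values of 6 libraries were used as the authors gave them, per the file headers. The submitters' processing notes name bcl2fastq 2.20.0, Trimmomatic, HISAT2 2.1.0 and StringTie 2.1.3b, and the builds Sscrofa11.1 and GRCh38 without a role. The sources used here state neither how the counts were made nor whether strand was used. Rows were matched to RefSeq Sscrofa11.1 by Entrez ID, and all 30352 matched. The 24 rows without a gene name, 0.00906% to 0.0385% of counts, were left out.

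Counts were filtered by group with edgeR 4.0.16 (18197 genes kept), scaled by TMM and tested with edgeR's quasi-likelihood test in 1 model over 6 libraries, with Benjamini-Hochberg adjustment within a comparison and a threshold of 0.05. Intervals are 95% intervals from the same fit. CPM is the count over the scaled library size. Alternatives used DESeq2 1.42.0, limma 3.58.1, other filters and scalings, a replicate block and each library left out. The scripts were tested on simulated data. The replicates are labelled as separate samples, and p-values measure the spread between them only.

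The genes and lists were chosen with earlier results of these data known. All members were named, and from each list up to 4 genes past the threshold with the smallest p, or otherwise 2, with CD3D, CD3E, CD3G, CD8A, CD8B, TBX21, EOMES and NCR1 always. Promoter and protein sequences were not used here.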

Additional observations from a re-analysis of the deposited data

How the results depend on the processing

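Against 1103 genes past the threshold in IR vs control, DESeq2 gave 3796, limma on log2(FPKM + 1) 403, library size alone 475, the 4 libraries of the comparison 0 and the replicate block 0, and leaving out a library gave 0 to 5342. In IR_Pra vs IR (1) DESeq2 gave 2513, limma voom 0, library size alone 2, no filter on low counts 2, the 4 libraries 0, the replicate block 0 and leaving out a library 0 to 3728. In IR_Pra vs control (0) DESeq2 gave 66. Of the 11 rows, 1 passed in IR vs control, and 3 with DESeq2, 0 with limma on log2(FPKM + 1), 0 with library size alone, 2 with the length trend removed, 0 with the 4 libraries, 0 with the replicate block and 0 to 5 with a library left out; in IR_Pra vs IR 0 to 1 passed with a library left out. Library size alone moved the median of all genes in IR_Pra vs IR to 0.14. GZMB in IR_Pra vs IR (-0.01) was 0.81 with limma voom, 0.71 with limma on log2(FPKM + 1), 0.24 with library size alone, 0.47 with the length trend removed and 0.21 with the replicate block, and CTSW (0.03) was -0.058 with the 4 libraries; the cause was not tested. With a library left out, values crossed 0 for GZMH (-2.16 to 0.063) and CTSW (-0.94 to 0.47) in IR vs control, for GZMB (-0.85 to 2.24), GZMH (-1.26 to 0.97), GNLY (-0.95 to 0.25) and CTSW (-0.42 to 0.71) in IR_Pra vs IR, and for NKG7 (-0.60 to 0.27) and CTSW (-0.68 to 0.41) in IR_Pra vs control. The log2 ratio to CD3 chains was 0.65 for IR over control (-0.14 against LCK and LAT, chosen after seeing the data; 0.08 to 1.18 with a library left out) and -0.71 for IR_Pra over control (-1.10 to -0.18). Deviations of same-numbered animals from their group means correlated across genes at 0.08, -0.11 and -0.09. With 2 animals in a group, these values cannot show whether the replicate numbers pair samples. Promoter motifs and protein identity were not run, and a further T cell denominator is not reported here.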
